A study of Mus musculus with 20 samples.

Results

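Wild-type (WT) and double knock-out (DKO) mice were compared in the hippocampus, on 10 of the 20 arrays of the series, 5 per genotype, chosen by the region and genotype in the sample titles. DKO mice lack adenylyl cyclase 1 (AC1, gene Adcy1) and adenylyl cyclase 8 (AC8, gene Adcy8). Each genotype has 1 array from untreated mice (baseline), 3 from mice sampled at 0 hr, at 1 hr and after 48 hr, counted from conditioned fear (CF) training with a single shock of 0.7 mA for 2 sec, and 1 from mice sampled 1 wk after training, following a test of 5 min. The comparison asks which genes differ in the DKO hippocampus at baseline and at every later time point alike, so the 5 time points of a genotype served as its replicates. Each array, an Affymetrix Mouse Gene 1.0 ST array, held RNA pooled from 5 to 10 males aged 2 months, and the tissue was taken as micropunches. Both genotypes are labelled C57BL/6. According to the methods, the WT mice were C57Bl/6 animals that were not littermates of the DKO mice. The DKO mice were bred on doxycycline, which they received until weaning, and carried the tetop-AC8 transgene alone, the CaMKII-tTA transgene alone, or neither. How these kinds of DKO mice were spread over the arrays is not given in the sources used here. Apart from the disrupted genes, genotype and the origin, transgenes and doxycycline history of the mice cannot be told apart.

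AC1 and AC8 are the adenylyl cyclases of the brain that calcium and calmodulin stimulate, so they turn calcium entry into cyclic AMP (cAMP). In the hippocampus cAMP activates protein kinase A, which can phosphorylate the transcription factor CREB at cAMP response elements (CRE) of its target genes. This chain is best known for its part in lasting synaptic change and memory.

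The deposited values are log2 levels summarized by robust multi-array average (RMA) for 28853 transcript clusters, sets of probes for a gene or a stretch of one. The arrays were alike, with medians between 6.64 and 6.81 and correlations between 0.9918 and 0.9968 for any pair. Values of different genes are not on a common scale, so levels are compared only within a gene. The 1 exception is a rough remark where values lie near the lower quartile of an array. Of the 17 dentate gyrus granule cell markers 15 were higher in the WT hippocampus than in the WT amygdala, led by Prox1, a transcription factor of granule cells, at a mean level of 9.28 against 6.93. Of 14 markers of CA3 pyramidal cells 9 were higher, of 13 markers of CA1 pyramidal cells 8, and of 11 markers of CA2 pyramidal cells 5. Of 20 markers of the thalamus 16 were higher in the WT hippocampus too.

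The DKO hippocampus differed from WT in few genes, and most of these were lower. Both disrupted genes fell, and so did Lynx1, Cyb5r3, Ift27 and a large family of near-identical copies around Gm10590 and the Ccl21 chemokines. Prkg2, Vav3, Klhl32 and the Dynlt1 copies rose. Ift27, Klhl32 and the Dynlt1 copies were the less firm of these, and missed the limit given next in 13 to 21 of 27 alternative analyses. In limma, with p-values adjusted by Benjamini-Hochberg over the whole array, 34 of 28853 passed an adjusted p of 0.1 (0.118%), 29 of them lower and 5 higher in DKO mice. Some hold identical values, so these stand for 26 distinct sets of values, 21 lower and 5 higher. With each array first centred on its median, 55 passed, 29 lower and 26 higher, so that the excess of lower calls depends on the scaling. At an unadjusted p of 0.05 there were 2212 lower and 1082 higher transcript clusters, and the median difference over all was −0.02 on the log2 scale. All 34 had the same sign at all 5 time points, and in 33 the 5 DKO arrays did not overlap the 5 WT arrays. The 34 were chosen on these same arrays, which favours both. Over all transcript clusters the arrays were apart with DKO lower in 1.08% and with DKO higher in 0.645%. These p-values measure the spread between time points and pools, not between single animals.

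**Figure D1:**
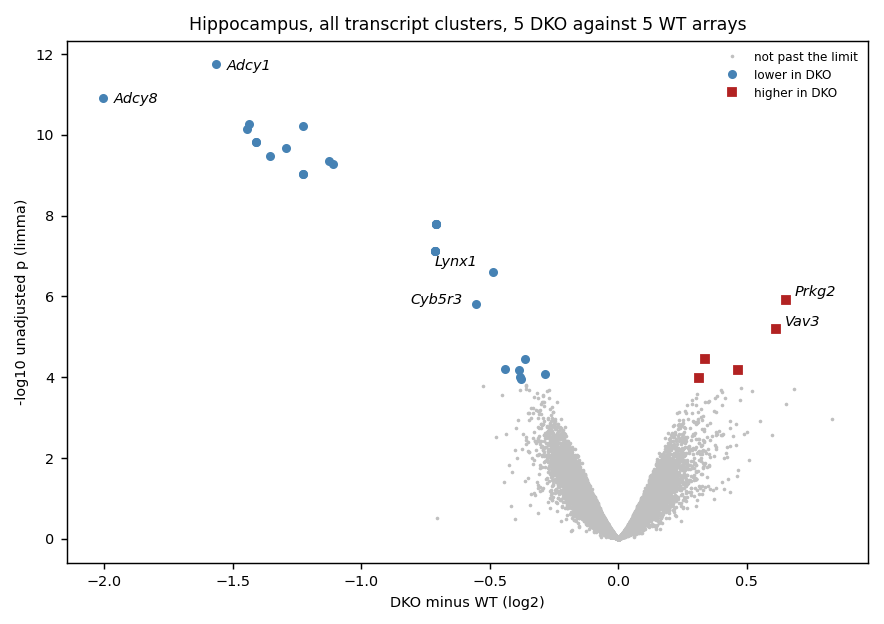
Each point is a transcript cluster in the hippocampus. The x axis is DKO minus WT (log2, 5 arrays against 5) and the y axis is −log10 of limma's unadjusted p, with the 29 lower and 5 higher calls in colour. Adcy1 and Adcy8 stand farthest from the bulk, and the calls on the lower side reach larger differences than those on the higher side.

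Adcy1 was measured by 1 transcript cluster of its own. From baseline through 0 hr, 1 hr and 48 hr to 1 wk the WT arrays read 9.04, 9.32, 9.53, 9.23 and 9.32, and the DKO arrays read 7.71, 7.67, 7.80, 7.73 and 7.68. No array came near the other group, and the DKO arrays were more alike (standard deviation 0.052) than the WT arrays (0.18). Adcy1 fell by 1.57 on the log2 scale (adjusted p = 5.22e-08 by limma, standard error 0.077 with 5 arrays of each genotype), or 2.96-fold. Adcy8 fell further. Its WT arrays read 7.25, 7.48, 7.14, 7.52 and 7.66 and its DKO arrays 5.42, 5.37, 5.22, 5.25 and 5.79, with the highest DKO value at 1 wk. The fall was 2.00 (standard error 0.11, adjusted p = 1.76e-07), or 4.01-fold. Where the probes of either transcript cluster lie relative to the disrupted exons is not given in the sources used here, so the remaining level is not a measure of remaining function. For the genes below, which were not disrupted, fewer cells of a type and less RNA per cell cannot be told apart in bulk tissue.

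The other 8 adenylyl cyclases did not pass the test. Adcy5, the cyclase most abundant in the striatum, had a difference of −0.15 (adjusted p = 0.399), with WT arrays between 6.89 and 7.00 and DKO arrays between 6.68 and 6.94, so the groups overlapped. Adcy2 had a difference of 0.03, Adcy3 −0.06 and Adcy9 −0.05. The median over all 10 cyclases was −0.08, beside −0.02 over all genes. Over all 19939 genes 10 were called lower and 3 higher, so short lists seldom hold a call. None of the 28 measured genes of downstream cAMP signalling, 21 cyclic nucleotide phosphodiesterases and 16 CREB factors and coactivators passed in either direction, with medians of −0.01, −0.02 and 0.05. The largest differences among them were 0.23 for Gnal, a stimulatory G protein subunit, −0.24 for Pde11a, which breaks down cAMP and cGMP, and 0.18 for Ep300, a histone acetyltransferase that binds CREB.

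Lynx1, a membrane-anchored Ly6 protein that restrains nicotinic acetylcholine receptors, was lower at all 5 time points. In WT its arrays read 9.27, 9.25, 9.33, 9.39 and 9.37, and in DKO 8.80, 8.81, 8.77, 8.85 and 8.93. The groups were well apart, and the standard deviation was 0.061 in both. Lynx1 fell by 0.49 (standard error 0.056, adjusted p = 0.00032), or 1.40-fold, and by between 0.47 and 0.51 with any 1 array or time point left out. It was the 1 gene called among 32 measured nicotinic receptors and Ly6 proteins, whose median was −0.06, beside 10 lower and 3 higher calls over all 19939 genes. Like the other lists here, this one was written with earlier results of these data known. That it holds a call is therefore no separate result. Chrnb4, a nicotinic receptor subunit, had a difference of −0.31 and Chat, which makes acetylcholine, −0.25, and neither passed (adjusted p = 0.326 and 0.361).

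Cyb5r3, the reductase that passes electrons from NADH to cytochrome b5, read 7.48, 7.85, 7.71, 7.82 and 7.64 in WT and 7.11, 7.09, 7.21, 7.26 and 7.07 in DKO mice. The groups were apart at every time point, with the smallest gap at baseline. Cyb5r3 fell by 0.55 (standard error 0.073, adjusted p = 0.00187), or 1.47-fold. Of 12 measured cytochrome b5 and reductase genes, a list also written with earlier results known, it alone passed. Ift27, a small GTPase of the intraflagellar transport that builds cilia, read 7.39, 7.68, 7.53, 7.78 and 7.61 in WT and 7.19, 7.31, 7.24, 7.14 and 7.18 in DKO mice, which did not overlap. It fell by 0.39 (standard error 0.071, adjusted p = 0.0652), and missed the limit in 16 of 27 alternative analyses. Of the 31 intraflagellar transport and related genes measured, 24 had a difference above 0 and the list's median was 0.05, so Ift27 moved against most of its group.

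Adcy8, Lynx1, Ift27 and Cyb5r3 all lie on chromosome 15. Of the 832 transcript clusters with 1 symbol there, 4 were called (0.481%), the disrupted Adcy8 among them, beside 16 of 21789 on the whole array (0.0734%). In the order of protein-coding genes in RefSeq (GRCm38.p6), Lynx1 is 39 genes from Adcy8, Ift27 150 genes and Cyb5r3 273 genes on the same side. Of the 92 genes measured among the 50 on either side of Adcy8, Lynx1 alone was called, and their median difference was −0.04. Mcat, an acyltransferase of mitochondrial fatty acid synthesis that lies 280 genes from Adcy8, read 7.32 to 7.58 in WT and 6.93 to 7.25 in DKO mice, with a difference of −0.36 (adjusted p = 0.136). The iron transporter Slc11a2, 469 genes away, read 7.15 to 7.38 in WT and 6.87 to 7.14 in DKO mice, a difference of −0.24 (adjusted p = 0.323). Around Adcy1 on chromosome 11, none of 94 measured neighbours was called and their median was 0.01, with 43 below 0 and 51 above. Among them Ccm2, close to Adcy1 in gene order, had a difference of −0.23 (adjusted p = 0.33 by limma), and of −0.44 in the amygdala. Ramp3, next to Adcy1, had a difference of 0.51 in the hippocampus (adjusted p = 0.372). Whether the DNA flanking the disrupted alleles differs between these mice was not tested.

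The lower calls with the largest differences after the cyclases were near-identical copies. There were 13 called transcript clusters that name Gm10590, alone or among 7 symbols in all, and they hold 9 distinct sets of values. Their WT arrays lay between 9.00 and 10.10, their DKO arrays between 7.38 and 9.49, and their differences between −1.45 and −0.71, or 1.64-fold to 2.72-fold. On the transcript cluster with the lowest p of these, WT arrays read 9.61, 9.50, 9.53, 9.61 and 9.48, and DKO arrays 8.11, 8.14, 8.32, 8.23 and 7.74. WT arrays were close together and the lowest DKO array was that of 1 wk. A further 4 transcript clusters, with 1 set of values between them, are paired with Ccl21a, Ccl21b, Ccl21c, Ccl21d and 3 predicted genes. Ccl21 is the chemokine that draws cells carrying the receptor CCR7, such as naive T cells, to lymphoid tissue. Its WT arrays read 8.60, 8.48, 8.47, 8.68 and 8.55 and its DKO arrays 7.79, 7.82, 8.03, 7.82 and 7.77, a fall of 0.71 (standard error 0.066, adjusted p = 2.79e-05) that separated the groups fully. All symbols of both groups lie on chromosome 4. The arrays cannot tell which copy changed, nor a lower level from fewer copies in the genome. Among the 47 chemokines and receptors with a transcript cluster of their own, 1 was called, and the list's median was −0.07. Earlier results of these data were known when that list was written. An unnamed pair of transcript clusters with 1 set of values fell by 1.23 (adjusted p = 2.05e-06).

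The remaining lower genes had small differences. Myo18b, an unconventional myosin best known from muscle, read 6.98, 7.19, 6.91, 6.93 and 6.91 in WT and 6.58, 6.61, 6.58, 6.65 and 6.68 in DKO mice on the 1 of its 20 transcript clusters that was called. That cluster fell by 0.36 (adjusted p = 0.0387), and the other 19 had differences between −0.31 and −0.03. Tmem139, a membrane protein, was between 5.61 and 5.75 in WT and between 5.30 and 5.41 in DKO mice, a fall of 0.28 (standard error 0.053, adjusted p = 0.0789). The groups did not overlap. Gpr15, a chemoattractant receptor of T cells, was between 5.38 and 5.80 in WT and between 5.15 and 5.31 in DKO mice and fell by 0.38 (adjusted p = 0.0895). The lower quartile of the arrays was between 5.45 and 5.64, so Tmem139 and Gpr15 were both read at a low level. For Ctrb1, a pancreatic chymotrypsinogen, the WT array at 1 hr (5.84) lay below the DKO array at baseline (5.86), the overlap that set it apart from the other calls, and its fall was 0.38 (adjusted p = 0.094). The DKO arrays of Ctrb1, at 5.60 to 5.86, were also not far from that quartile. An unnamed transcript cluster fell by 0.44 (adjusted p = 0.065). Ccdc88c, which binds Dishevelled in Wnt signalling, read 6.81 to 6.93 in WT and 6.56 to 6.70 in DKO mice. These groups did not overlap, but its difference of −0.24 missed the limit (adjusted p = 0.176).

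**Figure D2:**
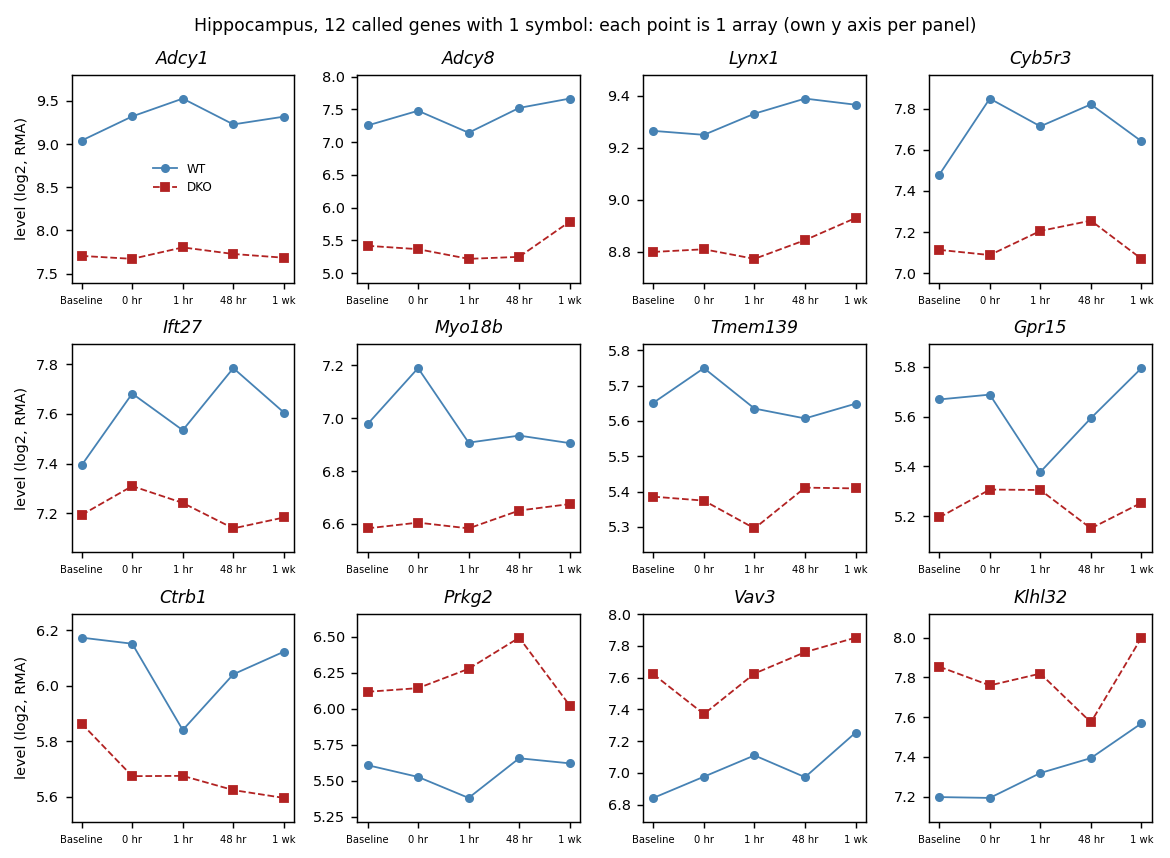
Levels (log2, RMA) of the 12 named genes that were called in the hippocampus, with 1 point per array, time points on the x axis, and lines that only join the arrays of a genotype. WT and DKO arrays are apart in every panel except that of Ctrb1, and in that of Klhl32 they nearly meet.

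Prkg2, which encodes cGMP-dependent protein kinase II, rose on 1 of its 2 transcript clusters. There WT arrays read 5.61, 5.53, 5.38, 5.66 and 5.62 and DKO arrays 6.12, 6.14, 6.28, 6.49 and 6.02. The DKO arrays were all higher, and 48 hr gave the highest of them. The WT arrays lay near the lower quartile of all values on an array (5.45 to 5.64), a low level. This was a rise of 0.65 (standard error 0.084, adjusted p = 0.0015), or 1.57-fold. On its other transcript cluster the difference was 0.23 (adjusted p = 0.359) and the arrays overlapped. Prkg2 was the 1 call among 19 genes of cGMP signalling, where the median was −0.03 and Cngb3, a cyclic nucleotide-gated channel subunit, had a difference of −0.25 (adjusted p = 0.3). Earlier results were known when this list was written too. Vav3, a signalling protein best known from lymphocytes, read 6.84, 6.98, 7.11, 6.97 and 7.25 in WT and 7.62, 7.37, 7.63, 7.76 and 7.85 in DKO mice. The lowest DKO array, at 0 hr, was above the highest WT array, at 1 wk. Vav3 rose by 0.61 (standard error 0.091, adjusted p = 0.00752), or 1.53-fold.

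Klhl32, a Kelch family protein, read 7.20, 7.19, 7.32, 7.39 and 7.57 in WT and 7.85, 7.76, 7.82, 7.57 and 8.00 in DKO mice on 1 of its 2 transcript clusters. The DKO array at 48 hr lay just above the WT array at 1 wk. The rise was 0.47 (standard error 0.086, adjusted p = 0.0652), while the other transcript cluster had a difference of 0.02. The Dynlt1 copies, which encode a light chain of the motor protein dynein, were measured by 2 transcript clusters that each name Dynlt1a, Dynlt1b, Dynlt1c and Dynlt1f. On the first, WT arrays read 9.05, 9.21, 9.04, 9.21 and 9.11 and DKO arrays 9.55, 9.45, 9.47, 9.42 and 9.40. It rose by 0.34 (standard error 0.058, adjusted p = 0.0387), and the second by 0.32 (adjusted p = 0.0896). Neither pair of groups overlapped, and which copy rose cannot be told.

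The thalamus lies next to the hippocampus. Of 20 genes on the list of its markers 19 had a difference above 0, beside 8753 of all 19939 genes. Of the 19, 15 had a transcript cluster at an unadjusted p of 0.05 by limma, beside 846 such genes over all. The list's median was 0.28 beside −0.02 over all genes. Members of the list were chosen with earlier results of these data known. Vav3 is on the list and was its 1 call. Tcf7l2, a transcription factor of thalamic neurons, read 8.64, 8.74, 8.63, 8.31 and 9.23 in WT and 9.41, 9.43, 9.09, 9.73 and 9.31 in DKO mice, where only the DKO array at 1 hr was below the highest WT array (difference 0.68, adjusted p = 0.136). Prkcd, a protein kinase C, read 8.75, 8.58, 8.92, 8.41 and 9.06 in WT and 9.38, 9.33, 9.12, 9.99 and 9.17 in DKO mice, with no overlap (difference 0.65, adjusted p = 0.191). Slc17a6, the vesicular glutamate transporter of thalamic neurons, differed by 0.60 (adjusted p = 0.323), with overlap. In 4 of the 20 genes the groups were apart with DKO higher (0.652% of all genes), and 6 were higher in DKO mice at all 5 time points (3.74% of all genes).

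The mean level of the thalamus list was 7.42, 7.51, 7.49, 7.37 and 7.75 on the WT arrays and 7.85, 7.72, 7.70, 8.03 and 7.73 on the DKO arrays. At 1 wk the genotypes had nearly the same mean, and at 48 hr they were farthest apart, with median differences of −0.07 and 0.62 over the list. At 1 wk and 48 hr the single-array differences were 0.60 and 0.79 for Vav3, 0.40 and 0.84 for Prkg2, and 0.43 and 0.18 for Klhl32. For the Dynlt1 transcript clusters they were 0.28 and 0.22 on the first and 0.21 and 0.25 on the second. In a fit with the mean of the 19 list genes other than Vav3 as a further term, an alternative added after these levels were seen, 23 transcript clusters passed, 22 lower and 1 higher, and 22 of them were among the 34. Vav3 then had a difference of 0.44 (adjusted p = 0.373), Prkg2 of 0.52 (adjusted p = 0.345), Klhl32 of 0.48 (adjusted p = 0.373) and the first Dynlt1 transcript cluster of 0.35 (adjusted p = 0.365). Adcy1, Adcy8, Lynx1 and the Ccl21 copies still passed, and Cyb5r3 did not (−0.58, adjusted p = 0.138). Without the term the differences were 0.47 for Klhl32, 0.34 for the first Dynlt1 transcript cluster and −0.55 for Cyb5r3. The list mean itself differed between the genotypes, so this fit cannot tell it apart from genotype. The part of thalamic tissue in the higher genes was not tested.

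**Figure D3:**
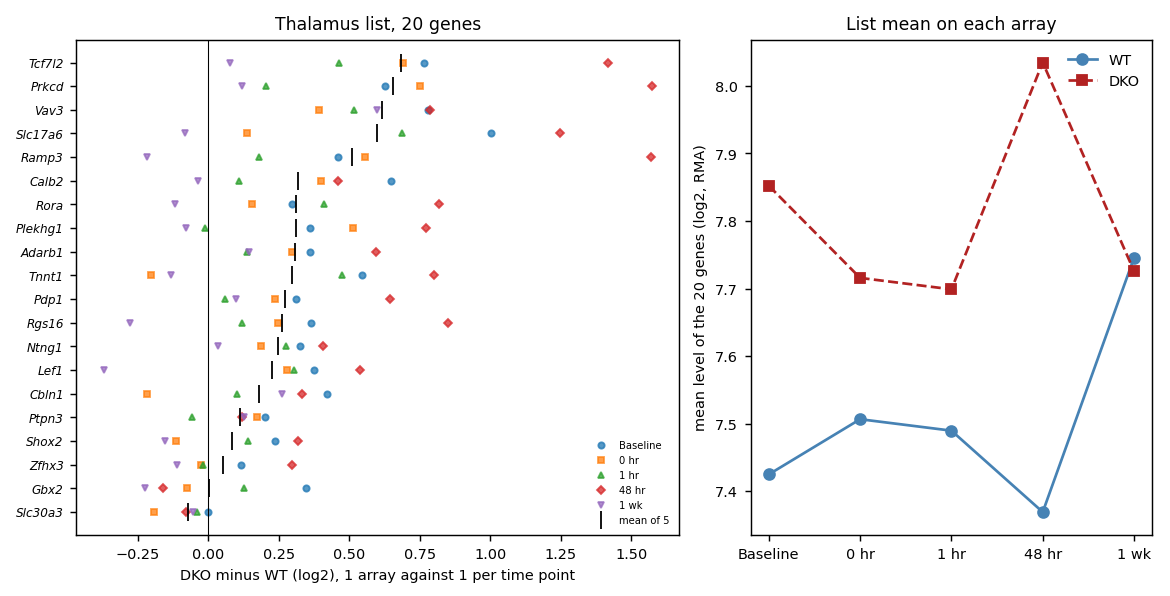
Left, DKO minus WT (log2) of the 20 thalamus genes at each time point, 1 array against 1, with a bar at the mean of the 5. Right, the mean level of these genes on each hippocampus array. Most genes are above 0 at baseline and 48 hr and lie on both sides of 0 at 1 wk, where the mean levels were 7.75 in WT and 7.73 in DKO mice.

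Markers of the hippocampus itself held no call, where all 19939 genes held 10 lower and 3 higher. The 17 dentate gyrus granule cell genes had a median of 0.10. Prox1 had a difference of 0.21 (adjusted p = 0.359) and Trpc6, a cation channel of granule cells, 0.26 (adjusted p = 0.335). Of 13 CA1 pyramidal cell genes 12 were lower, beside 56.1% of all genes, and their median was −0.12. This was not steady over time. From baseline to 1 wk the median was −0.02, −0.14, 0.03, −0.39 and −0.10, each from 1 array against 1. At 48 hr the mean level of the CA1 list was 7.82 in WT and 7.31 in DKO mice, the highest and the lowest of all arrays. Ccn3, a secreted matrix protein, had a difference of −0.42 (adjusted p = 0.391) and Gpr161, a ciliary receptor, −0.29 (adjusted p = 0.359). CA2 and CA3 genes had medians of 0.02 and 0.04. Choroid plexus genes varied between arrays more than between genotypes. Ttr, the thyroxine carrier of choroid plexus, read 13.05, 12.94, 13.39, 11.73 and 10.46 in WT and 13.34, 13.33, 10.25, 11.01 and 10.12 in DKO mice, so that the 1 hr arrays of the genotypes were far apart. The mean level of that list lay between 6.89 and 7.92 in WT and between 6.78 and 8.15 in DKO mice. Lists for astrocytes (median 0.01), oligodendrocytes and myelin (−0.06), microglia (−0.05), endothelial cells and pericytes (0.04), meninges and fibroblasts (0.07), striatal projection neurons (0.02), neocortex (−0.01) and GABA interneurons (−0.02) held no call.

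**Figure D4:**
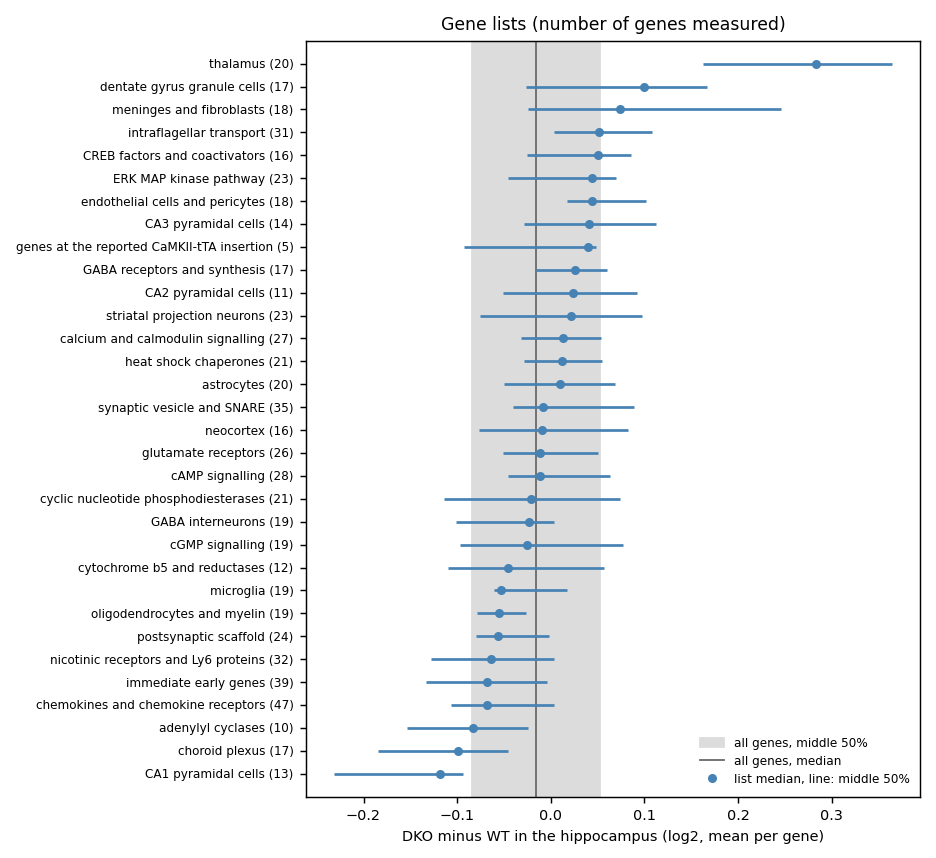
Median difference between DKO and WT hippocampus (log2) of the gene lists described here, with a line over the middle 50% of its genes and the number measured in parentheses. The grey band and line give the middle 50% and the median (−0.02) of all genes. The thalamus list has the highest median (0.28) and the CA1 list the lowest (−0.12).

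No gene of glutamate receptors (26 measured), GABA receptors and synthesis (17), synaptic vesicles and SNARE proteins (35), postsynaptic scaffolds (24), calcium and calmodulin signalling (27), the ERK MAP kinase pathway (23) or heat shock chaperones (21) was called, and the medians of these lists lay between −0.06 and 0.04. Such lists seldom hold a call, with 10 lower and 3 higher among all 19939 genes. Gabra4, a GABA receptor subunit, had the largest difference among the receptors, with WT arrays at 9.48, 9.39, 9.54, 9.43 and 9.55 and DKO arrays at 9.58, 9.77, 9.73, 9.80 and 9.82, which did not overlap (difference 0.26, adjusted p = 0.231). Of 39 immediate early genes, which neurons switch on after activity, 30 were lower, beside 56.1% of all genes, none was called, and their median was −0.07. The largest difference among them was in the other direction, for Ier3, a stress-induced regulator of cell survival, at 0.38 (adjusted p = 0.359), with WT arrays at 6.56, 6.95, 6.25, 6.77 and 7.01 and DKO arrays at 7.02, 7.04, 7.22, 7.21 and 6.95. The groups overlapped. Arc, which acts at active synapses, read 7.63, 8.11, 8.15, 7.67 and 7.98 in WT and 7.53, 7.64, 7.96, 7.58 and 7.66 in DKO mice (difference −0.23, adjusted p = 0.431). Both genotypes had their highest Arc value at 1 hr, and only the WT mice had a high value at 0 hr. Egr2, a zinc finger transcription factor, read 7.54 in WT and 7.79 in DKO mice at 1 hr, the highest array of each, and 7.14 and 6.58 at 0 hr (difference over all time points −0.31, adjusted p = 0.625). These single arrays have no replicate. The 5 genes listed as next to the transgene insertion reported for CaMKII-tTA mice held no call and had differences between −0.12 and 0.07. The labels and methods do not give the insertion site, nor which arrays held carriers. So short a list seldom holds a call, so an effect of the transgene was not tested.

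Time points are single arrays, so their differences are given with no test. At least 1.5-fold between the genotypes was seen for 155 transcript clusters at baseline (0.537%). The number was 285 at 0 hr (0.988%) and 197 at 1 hr (0.683%), and it was highest on the last arrays, with 336 at 48 hr (1.16%) and 464 at 1 wk (1.61%). Of the 34 calls, which were chosen on these same arrays, between 18 (1 hr) and 24 (0 hr and 48 hr) reached it. Adcy1 differed by between −1.72, at 1 hr, and −1.33, at baseline, and Adcy8 by between −2.27, at 48 hr, and −1.84, at baseline. Of the 1.5-fold differences most were higher in DKO mice at baseline (109 against 46) and at 0 hr (186 against 99), and most were lower at 1 hr (153 against 44), 48 hr (277 against 59) and 1 wk (260 against 204). The median over all transcript clusters moved between 0.06 at baseline and −0.09 at 48 hr.

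In the amygdala 28 transcript clusters (0.097%) passed the same test, and its values are set beside those of the hippocampus for the 26 sets. The genotype difference was itself tested between the regions on all 20 arrays, where 3 genes passed an adjusted p of 0.05 (0.0104%). Adcy1 had means of 9.29 in WT and 7.72 in DKO hippocampus and of 8.21 and 7.65 in the amygdala, so that its fall was larger in the hippocampus (region difference −1.01, standard error 0.12, adjusted p = 0.000574). Vav3 differed by 0.61 in the hippocampus and −0.31 in the amygdala (region difference 0.93, standard error 0.12, adjusted p = 0.000729). Ctla2a, a cathepsin inhibitor that was no call in the hippocampus, differed by 0.47 and −0.36 (region difference 0.84, adjusted p = 0.0452). Its WT arrays read 5.88, 6.30, 6.19, 6.52 and 6.20 in the hippocampus and its DKO arrays 6.77, 6.89, 6.71, 6.47 and 6.60, with overlap at 48 hr. Prkg2 differed by 0.65 and −0.18, Myo18b by −0.36 and 0.22, Gpr15 by −0.38 and 0.11, Tmem139 by −0.28 and 0.07 and Klhl32 by 0.47 and 0.08, and for none of these did the difference between the regions pass (adjusted p from 0.241 to 0.247). Lynx1 differed by −0.49 and −0.43, Cyb5r3 by −0.55 and −0.71, Ift27 by −0.39 and −0.46, and the Ccl21 copies by −0.71 and −0.64. In the amygdala Lynx1 did not pass (adjusted p = 0.259 by limma). Cyb5r3, Ift27 and the Ccl21 copies did (adjusted p = 0.00102, 0.00603 and 0.0119). The thalamus list had a median of −0.05 in the amygdala.

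**Figure D5:**
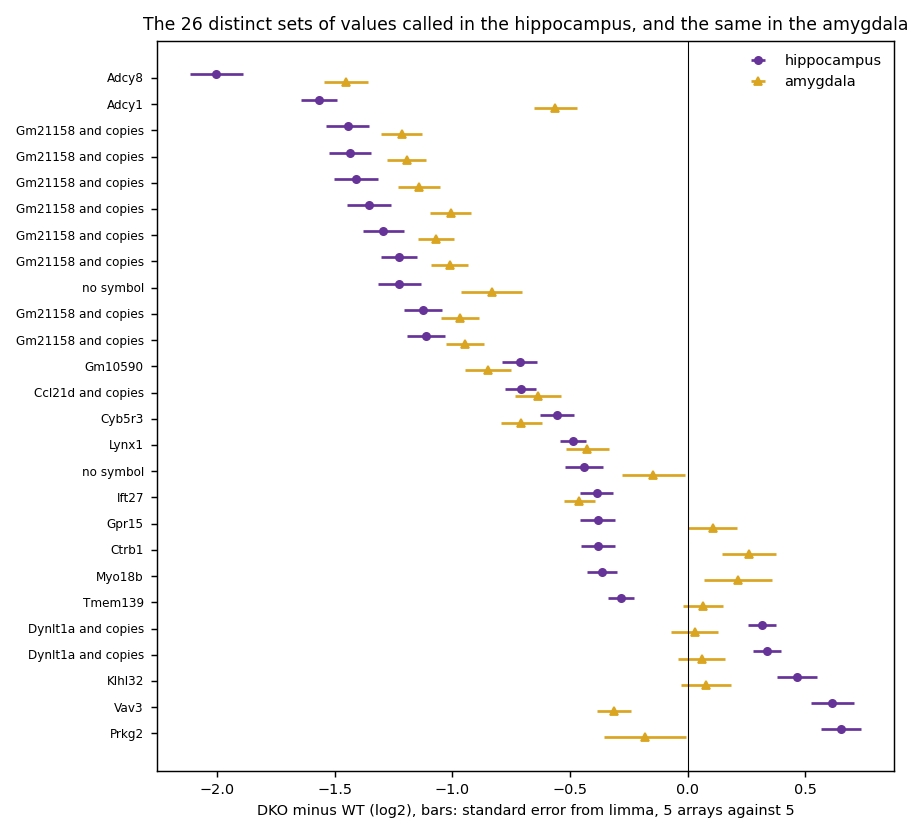
DKO minus WT (log2) with limma's standard error for the 26 distinct sets of values called in the hippocampus and for the same transcript clusters in the amygdala, 5 arrays per genotype in each. Adcy1 and Vav3 are the points of this plot whose difference between the regions passed the test.

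Promoters were searched for the CRE (TGACGTCA) and its half-site (TGACG) on both strands, where every CRE also holds half-sites. RefSeq windows of 300 bases, from 250 before to 50 after the start, were held for 7 of the 12 named called genes. None of their 9 windows holds a CRE, beside 1.79% of 32851 windows of all genes. The half-site is in 1 of the 9, that of Gpr15, beside 20.8% of all. The window of Gpr15 is shown because it holds the half-site, given in capitals, and those of Adcy1 and Ift27 because they are the lower genes on the chromosomes of the cyclases that have a window.
Gpr15 (GRCm38.p6, chr16:58718823-58719122, minus strand): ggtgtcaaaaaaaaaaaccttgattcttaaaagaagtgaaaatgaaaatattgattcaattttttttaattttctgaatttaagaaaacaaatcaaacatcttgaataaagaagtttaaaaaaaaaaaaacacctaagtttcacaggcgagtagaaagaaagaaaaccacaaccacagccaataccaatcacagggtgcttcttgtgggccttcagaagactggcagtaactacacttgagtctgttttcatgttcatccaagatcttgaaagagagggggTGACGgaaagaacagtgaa
Adcy1 (GRCm38.p6, chr11:7063183-7063482, plus strand): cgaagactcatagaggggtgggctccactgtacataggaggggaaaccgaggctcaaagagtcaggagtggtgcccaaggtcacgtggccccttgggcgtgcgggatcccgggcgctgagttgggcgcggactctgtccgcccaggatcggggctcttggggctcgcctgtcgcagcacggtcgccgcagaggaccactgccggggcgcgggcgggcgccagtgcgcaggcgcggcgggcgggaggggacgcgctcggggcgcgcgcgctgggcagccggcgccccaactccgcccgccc
Ift27 (GRCm38.p6, chr15:78174032-78174331, minus strand): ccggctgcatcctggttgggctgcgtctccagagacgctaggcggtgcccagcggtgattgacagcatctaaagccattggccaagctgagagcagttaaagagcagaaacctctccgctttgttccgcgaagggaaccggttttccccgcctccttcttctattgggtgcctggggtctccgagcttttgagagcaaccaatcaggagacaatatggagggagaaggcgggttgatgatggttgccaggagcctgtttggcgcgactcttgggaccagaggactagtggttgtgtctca
Those of Adcy1 and Ift27 hold no half-site, which says only that these letters are not in these windows.

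Just past the limit stood genes of both directions. Lower in DKO mice were Vsig10, Kcnj1, Olfr43, Mcat and Gal3st2c, with differences between −0.53 and −0.35 and adjusted p between 0.127 and 0.136. Kcnj1, a potassium channel, read 5.25 to 5.66 in WT and 5.01 to 5.12 in DKO mice, with no overlap. Higher were Ntng1, Tcf7l2, Alg14, Adarb1 and Efcab7, with differences between 0.31 and 0.68 and adjusted p between 0.136 and 0.156. Ntng1, an axon guidance protein, Tcf7l2 and Adarb1, which edits RNA for glutamate receptors, are on the thalamus list. On 1 of its 2 transcript clusters Ntng1 read 7.91, 8.20, 8.18, 8.08 and 8.37 in WT and 8.49, 8.53, 8.58, 8.98 and 8.56 in DKO mice, and Adarb1 8.94, 8.92, 9.02, 8.79 and 9.03 in WT and 9.30, 9.22, 9.16, 9.38 and 9.17 in DKO mice. The other Ntng1 transcript cluster had a difference of 0.01 (adjusted p = 0.935). The genotypes did not overlap for Adarb1 or for the first Ntng1 cluster, and both were highest on the DKO array at 48 hr, the array with the highest mean of the thalamus list.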

How the data were processed

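Total RNA from hippocampal micropunches was hybridized to Affymetrix Mouse Gene 1.0 ST arrays. The authors corrected, normalized and summarized the probes by RMA in the Affymetrix Expression Console (version not given in the sources used here), and the deposited values are on a log2 scale. No filter was applied and every column was mapped to a sample. A gene stands for the transcript clusters paired with its symbol alone. There were 21789 such clusters for 19938 symbols, which came from the platform annotation, updated through RefSeq gene IDs. Gene order and promoters came from RefSeq tables of GRCm38.p6. The build behind the array annotation is not given in the sources used here.

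DKO minus WT was fitted with limma 3.58.1 (lmFit and eBayes, R 4.3.3) and Benjamini-Hochberg adjustment over all 28853 transcript clusters, with adjusted p limits of 0.1 within a region and 0.05 for the difference between regions. The fits were tested on simulated data. Lists were described by counts and medians of genes, with the mean over the clusters of a gene. Named genes are all calls, the genes the study named for this comparison with Slc11a2, list members called or among the 3 largest differences, and the 5 genes of lowest p past the limit in each direction. Members of lists and these rules were chosen with earlier results of these data known. Alternatives covered filtering, normalization, variance model, array weights, pairing, test, limit, identical clusters and arrays left out. Summaries and figures were made in Python 3.11.15 with pandas 2.3.3 and matplotlib 3.10.9. The number of arrays limits the precision. Results on 1 list are not reported here.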

Additional observations from a re-analysis of the deposited data

Results flagged for a closer look

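Groups of 5 arrays were checked over the lists, the calls and Ctla2a. The genes the study named with Slc11a2 and those just past the limit were checked too. In 7 of 144 groups 1 array lay far from the other 4, where chance gives about 1 in 20. Copies of Ccl21 read 8.03 on the DKO array at 1 hr, beside 7.77 to 7.82 on the other DKO arrays. Myo18b read 7.19 on the WT array at 0 hr, beside 6.91 to 6.98. Mcat read 7.32 on the WT array at 1 hr, beside 7.51 to 7.58. Ntng1 read 8.98 on the DKO array at 48 hr, beside 8.49 to 8.58.

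The DKO array at 48 hr also had the lowest mean of 3 lists by such a margin. It read 8.32 for cAMP signalling, beside 8.41 to 8.43, 6.19 for cGMP signalling, beside 6.25 to 6.27, and 8.02 for dentate gyrus granule cells, beside 8.20 to 8.24. That array had the lowest median of the 10, 6.64, and the highest mean of the thalamus list, 8.03. Their part in these values was not tested.

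The genotype difference was itself different between hippocampus and amygdala for Adcy1 (−1.01), Ctla2a (0.84) and Vav3 (0.93), by limma on all 20 arrays.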

How the results depend on the processing

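The count of 34 calls rose to 55 with arrays centred on their median and was 22 with identical transcript clusters taken once, where 26 sets had been called among all clusters. With 1 array or both arrays of a time point left out it lay between 25 and 73. The highest came without the WT array at 1 hr, where 52 were lower and 21 higher and 33 of the 34 were among them. The other alternatives gave 23 to 46. The count of 3 region differences was 1 among clusters above the median level, Adcy1, and between 2 and 5 with 1 array left out, with 5 without the DKO hippocampus array at 48 hr.

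Time points paired the arrays weakly at most. Deviations of arrays of the same time point correlated at 0.23 at baseline, where they matched best, and between −0.13 and 0.01 at the others. With the time point as a replicate block 34 were called, 26 lower and 8 higher, of which 27 were among the 34, and 2 region differences. The alternatives were run on the calls, the genes the study named with Slc11a2, those just past the limit and those with a region difference. Genes named only for a large difference within a list were not run. No gene that was run changed sign under any alternative. Adcy1, Adcy8, Lynx1, the Gm10590 and Ccl21 copies and the unnamed pair passed under all alternatives. Cyb5r3 missed the limit in 1 of 27, the thalamus term, Prkg2 in 3 of 26 and Vav3 in 5 of 27, where the term gave the highest adjusted p of each (0.138, 0.345 and 0.373). The 9 other sets missed it in 13 to 21, with adjusted p up to 0.674 for Myo18b with all 20 arrays in 1 fit. The region difference of Ctla2a missed its limit in 18 of 24. The causes were not tested.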
